A study of Mus musculus with 8 samples.

Results

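A set of 10 genes whose products are used to mark or sort mouse pluripotent cells was followed across 8 RNA-seq libraries: Alpl, Pecam1, Jam2, Icam1, Kit, Cd9, Cd24a, Cd44, Prom1 and Fut4. They were chosen by name, and each had 1 entry in every deposited table, 10 of 22987 genes at 1 locus. The libraries came from epiblast stem cells (mEpiSC), the primed state of the epiblast after implantation, and from embryonic stem cells (mESC), the naive state of the inner cell mass. The mEpiSC lines were EpiSC5 (mEpiSC 1), EpiSC7 (mEpiSC 2 and 3) and EpiSC9 (mEpiSC 4), grown with FGF2 and passaged as clumps with collagenase. The mESC lines were ESF175/1 (mESC 3 and 4) and ESF122 (mESC 1 and 2), grown with LIF and passaged as cells freed by trypsin. Both states were kept in a serum replacement medium on irradiated fibroblast feeders, which were removed before polyadenylated RNA was taken. State, growth factor and passaging differed together and cannot be told apart. Whether libraries of the same line were grown apart is not stated, and every p-value therefore reflects library-to-library spread that may be technical.

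Pluripotent cells are commonly sorted by antibodies against surface proteins, and a stain for alkaline phosphatase activity is a classical mark of mouse embryonic stem cells. Pecam1 (CD31), Jam2 and Icam1 belong to the immunoglobulin superfamily of adhesion proteins. Alpl is an enzyme tethered to the outer membrane by a lipid anchor, Cd9 a tetraspanin, and Kit the receptor kinase for stem cell factor. Cd24a is a small, heavily glycosylated protein on a lipid anchor, Cd44 the main receptor for hyaluronan, and Prom1 (CD133) a protein of membrane protrusions. Fut4 is a fucosyltransferase of the Golgi and not itself a surface protein; enzymes of its class make the Lewis x sugar recognised as SSEA-1, which in the early mouse embryo depends on its relative Fut9.

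Values are deposited FPKM, that is fragments per unit of transcript length and of sequencing depth, so that levels of different genes can be set side by side per length. Each library listed 10947 to 11524 entries at 1 FPKM or more, and the deposited intervals imply about 24800000 to 38600000 fragments per library. Markers of the states went with the labels: all 7 naive factors checked fell in mEpiSC, and 5 of 7 primed genes rose (4 to 7 and 2 to 5 under the alternatives, some of which tested fewer genes). Of the naive factors, Zfp42, Tbx3 and Dppa3 reached 1 FPKM only in mESC, so each was tested only because it was high there. Within mESC, mESC 2 stood nearest to mEpiSC. Its mean log2 level of the primed genes was 4.61, against 2.91 to 3.64 in the other mESC libraries and 4.83 in mEpiSC 4. Its naive mean, 4.0, was the lowest in mESC but far above the highest in mEpiSC (1.09). The other ESF122 library, mESC 1, lay on the same side of both ESF175/1 libraries. Its primed mean was 3.64, against 3.14 and 2.91 in mESC 3 and 4, and its naive mean 4.25, against 4.89 and 4.69. Of 14 tested markers of feeder fibroblasts 5 were higher in mEpiSC and none lower, with 2 to 14 higher under the alternatives and all 14 with the replicate number as a block. Their summed level, over 15 genes of which none was at 0 in all libraries, was 106.8 to 576.9 FPKM in mEpiSC and 13.0 to 306.6 FPKM in mESC, with the highest mESC value in mESC 1. Of 6 tested primitive endoderm markers 5 were higher in mEpiSC, with 0 to 6 under the alternatives. Among the 5, Gata6 and Sox17 reached 1 FPKM only in mEpiSC and were tested only because they were high there. Both lists leaned higher in mEpiSC, but not alike. The mean log2 level of the endoderm markers was 1.7 to 3.22 in mEpiSC and 0.75 to 0.96 in mESC. Of the 15 fibroblast markers 13 overlapped between the states, and their mean in mESC 1 (3.57) exceeded those in mEpiSC 3 (3.19) and mEpiSC 4 (2.55). For comparison, 23.1% of all tested genes were called higher in mEpiSC. A fit with the fibroblast level as a covariate is given beside the genes it changes, and the part of the endoderm markers was not tested.

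Of the 9 markers tested 8 differed between the states. These 8 compare with 37.3% of all 11556 tested genes called in either direction. In mEpiSC 5 were lower (Pecam1, Jam2, Icam1, Alpl and Cd9), against a background of 14.2% of tested genes called lower, and 3 were higher (Cd24a, Prom1 and Cd44), against 23.1% called higher. The libraries of the states did not overlap for any of these 8 genes, where 14.9% of all tested genes lay wholly lower and 22.2% wholly higher. The median size of the log2 fold change was 1.84 for the 9 markers and 0.39 for all tested genes, and the signed medians were −0.98 and 0.08. The set was chosen as markers of pluripotent cells and with earlier results of these data known. Its excess over all genes is therefore only descriptive. The test was limma on log2(FPKM + 1), with p-values adjusted over all tested genes by the Benjamini-Hochberg method, and fold changes are mEpiSC minus mESC on that scale, which understates the change of low genes. Kit did not pass the test, and Fut4 was too low to enter it.

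**Figure D1:**
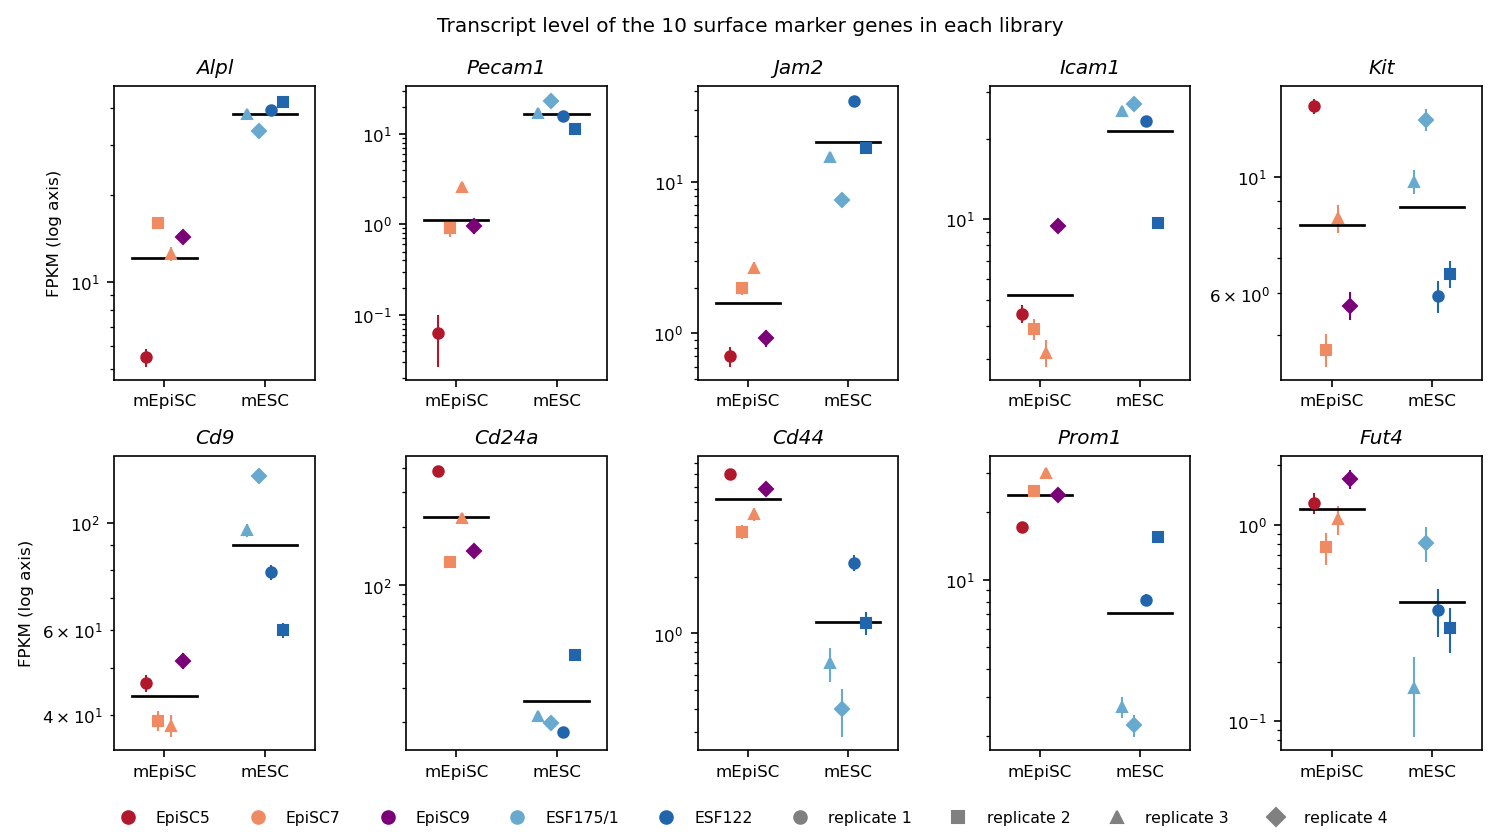
FPKM of each gene on a log axis, with mEpiSC on the left and mESC on the right; points are libraries with the deposited 95% interval, colours are cell lines, symbols replicates and black bars means (n = 4 per state). The states lie apart in 8 panels and overlap for Kit and Fut4.

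Of the adhesion proteins of the immunoglobulin class, Pecam1 changed most in the main fit, but its rank over Jam2 was not stable. Jam2 changed more with the fibroblast covariate (log2 −3.44 against −2.74 for Pecam1), without mESC 4 (−3.12 against −2.99) and, barely, in replicates 1 to 3 alone. Pecam1 (chromosome 11, 106515532 to 106576595 in mm9) measured 0.0629, 0.901, 2.56 and 0.967 FPKM in mEpiSC 1 to 4, against 15.7, 11.3, 17.0 and 23.1 FPKM in mESC 1 to 4. Every mEpiSC library lay below every mESC library, and EpiSC5 stood lowest, with an interval that implies 12 fragments. The means were 1.12 ± 1.04 FPKM in mEpiSC and 16.8 ± 4.90 FPKM in mESC (SD, n = 4 each), a log2 fold change of −3.15 (SE 0.35; limma, adjusted p = 3.4e-04). Pecam1 is also a defining gene of endothelium. The other 8 endothelial markers reached 1 FPKM in too few libraries to be tested. Their summed level was 1.49, 8.38, 20.5 and 13.0 FPKM in mEpiSC 1 to 4 and 2.52 to 5.10 FPKM in mESC. Within mEpiSC this sum, like Pecam1, was lowest in mEpiSC 1 and highest in mEpiSC 3. Of these 8 markers 2 lay wholly higher in mEpiSC (Cdh5, at 1.49 ± 1.28 FPKM in mEpiSC and 0.0279 ± 0.0132 FPKM in mESC, and Sox18), 1 wholly lower (Vwf, at 0.205 ± 0.197 FPKM in mEpiSC and 0.859 ± 0.254 FPKM in mESC) and 5 overlapped, and their part in the result was not tested. In bulk RNA, fewer cells with a transcript and less of it per cell cannot be told apart.

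Jam2, a protein of cell junctions, was also low in mEpiSC. Jam2 (chromosome 16, 84774368 to 84826620) measured 0.702, 1.98, 2.70 and 0.923 FPKM in mEpiSC 1 to 4 and 34.2, 16.8, 14.5 and 7.53 FPKM in mESC 1 to 4. Its mESC libraries spread 4.55-fold, yet the lowest of them, mESC 4, was above the highest mEpiSC library. The means were 1.58 ± 0.933 FPKM in mEpiSC and 18.3 ± 11.3 FPKM in mESC (log2 −2.79, SE 0.42; limma, adjusted p = 0.0013).

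Icam1, the ligand of the leukocyte integrin LFA-1, fell less far and remained detectable in all mEpiSC libraries. Icam1 (chromosome 9, 20820404 to 20833240) measured 4.44, 3.89, 3.18 and 9.44 FPKM in mEpiSC 1 to 4 and 23.3, 9.67, 25.3 and 27.0 FPKM in mESC 1 to 4. The states came within a narrow margin of each other, with EpiSC9 highest in mEpiSC and mESC 2 lowest in mESC. The log2 fold change was −1.84 (SE 0.37; limma, adjusted p = 0.0049). With libraries of 1 line averaged and lines taken as samples, the adjusted p was 0.057, and over all alternatives it ranged from 0.0017 to 0.057. In a later annotation 18.6% of the 50-base windows of Icam1 transcripts also occur in the entry Gm47079, and how such reads were counted is not stated.

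Alpl, the alkaline phosphatase behind the classical stain, had the narrowest range in mESC of the 10 genes. Alpl (chromosome 4, 137297647 to 137352292) measured 5.49, 16.0, 12.6 and 14.4 FPKM in mEpiSC 1 to 4 and 39.6, 42.0, 38.2 and 33.4 FPKM in mESC 1 to 4. The highest library was 2.92 times the lowest in mEpiSC, where EpiSC5 was lowest, and 1.26 times the lowest in mESC. The means were 12.1 ± 4.64 FPKM in mEpiSC and 38.3 ± 3.60 FPKM in mESC (log2 −1.67, SE 0.28; limma, adjusted p = 0.0021). Unlike Pecam1 and Jam2, Alpl thus kept 0.316 of its mESC mean. The related phosphatase genes Alpi and Akp3 were at 0 in all 8 libraries, and Alppl2 did not exceed 0.0222 FPKM in any.

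Cd9, a tetraspanin that organises adhesion proteins in the membrane, was the most abundant of the 10 in mESC and showed the smallest of the 8 changes. Cd9 (chromosome 6, 125410284 to 125444773) measured 46.5, 38.9, 38.1 and 51.7 FPKM in mEpiSC 1 to 4 and 79.0, 59.9, 96.5 and 125 FPKM in mESC 1 to 4. All mEpiSC libraries lay below all mESC libraries, with means of 43.8 ± 6.50 FPKM in mEpiSC and 90.1 ± 27.6 FPKM in mESC. The log2 fold change was −0.98 (SE 0.22; limma, adjusted p = 0.0078). Its adjusted p was 0.070 with lines as samples and 0.067 with the mean fibroblast marker level as a covariate, within a range of 0.0035 to 0.070 over all alternatives. With that covariate the log2 fold change of Cd9 was −0.765 (SE 0.27). Of its transcript windows 15.5% also occur in other genes.

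The stretch before the transcription start is shown for those of the 5 lower genes that have one in the RefSeq table of GRCm38.p6, because these genes fell together; Pecam1 and Jam2 have no entry there. Each is 250 bases, 5′ to 3′ on the strand of the gene and ending at the base before the start: Icam1 at chr9:21015690-21015939 (plus strand), Alpl at chr4:137796385-137796634 (minus strand, the farther upstream of the 2 listed starts) and Cd9 at chr6:125494761-125495010 (minus strand). The start listed for Icam1 is RefSeq's: the 40 bases after it were not found in GENCODE vM21 transcripts of Icam1, whereas those of Alpl and Cd9 were found in their transcripts. The other listed start of Alpl, with 4 CpG pairs and 1 match to TATAAA, is not shown. Capitals mark matches, on either strand, to any of 6 motifs. The GC box was read as GGGCGG and the E-box as the letters CACGTG. The CCAAT box was read as its name and the TATA box as TATAAA. The site of the factor NF-kappaB was read as GGAAATTCC. The site of Esrrb, a naive nuclear receptor, was read as TCAAGGTCA.
Icam1: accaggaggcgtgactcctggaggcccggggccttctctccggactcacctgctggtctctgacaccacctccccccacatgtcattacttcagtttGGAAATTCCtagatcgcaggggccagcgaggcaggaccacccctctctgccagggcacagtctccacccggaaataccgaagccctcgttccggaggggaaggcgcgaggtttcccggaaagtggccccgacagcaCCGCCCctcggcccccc
Alpl: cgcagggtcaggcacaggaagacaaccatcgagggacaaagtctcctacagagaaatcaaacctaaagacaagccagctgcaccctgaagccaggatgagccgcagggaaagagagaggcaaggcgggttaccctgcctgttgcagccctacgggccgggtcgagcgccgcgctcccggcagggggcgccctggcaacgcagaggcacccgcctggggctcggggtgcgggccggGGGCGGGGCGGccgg
Cd9: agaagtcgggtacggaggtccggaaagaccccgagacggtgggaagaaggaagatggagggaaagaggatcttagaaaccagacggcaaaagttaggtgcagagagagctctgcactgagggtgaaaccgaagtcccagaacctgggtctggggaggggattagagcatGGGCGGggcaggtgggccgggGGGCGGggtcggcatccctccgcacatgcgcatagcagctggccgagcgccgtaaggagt
Icam1 holds the NF-kappaB letters at position −153 counted from that RefSeq start, and 0.286% of 32851 windows of this length in the table hold them. That share is for these exact letters, and other spellings of NF-kappaB sites were not searched. The motif was included because such a site is known in human ICAM1, so its presence in Icam1 is no independent result. GC boxes stand in all 3 windows, as in 32.7% of all windows, and those of Alpl overlap each other. The 3 windows hold 15, 20 and 16 CpG pairs in the order printed. A match describes letters only, and these data do not bear on binding.

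Among the genes that rose, Cd24a changed most and became the most abundant of the 10. Cd24a, known as heat-stable antigen (chromosome 10, 43298975 to 43304071), measured 387, 132, 222 and 151 FPKM in mEpiSC 1 to 4 and 17.7, 44.0, 21.5 and 19.8 FPKM in mESC 1 to 4. The lowest mEpiSC library, mEpiSC 2, lay well above the highest mESC library, mESC 2. The means were 223 ± 116 FPKM in mEpiSC and 25.7 ± 12.2 FPKM in mESC, an 8.67-fold difference (log2 3.03, SE 0.38; limma, adjusted p = 5.7e-04). Of its transcript windows 3.48% are shared with the entry Gm6212. EpiSC5 and mESC 2 held the highest values of their states.

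Prom1, found on membrane protrusions of epithelial progenitors, was higher in mEpiSC but varied within mESC. Prom1 (chromosome 5, 44384861 to 44492975) measured 17.2, 24.9, 29.9 and 23.8 FPKM in mEpiSC 1 to 4 and 8.15, 15.5, 2.70 and 2.24 FPKM in mESC 1 to 4. The mEpiSC libraries lay close together, while mESC 2 came near the lowest of them and both ESF175/1 libraries lay far below. The means were 24.0 ± 5.19 FPKM in mEpiSC and 7.14 ± 6.16 FPKM in mESC (log2 1.91, SE 0.48; limma, adjusted p = 0.013). The adjusted p was 0.081 with lines as samples and 0.094 with the fibroblast covariate, and ranged from 0.0027 to 0.094 over all alternatives. With that covariate the log2 fold change of Prom1 was 1.59, with a larger SE of 0.64. Its relative Prom2 did not exceed 0.476 FPKM in any library. Of the windows of Prom1 transcripts 5.98% are shared with Gm16401.

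Cd44, the hyaluronan receptor that is also abundant on fibroblasts, was moderate in mEpiSC and low in mESC. Cd44 (chromosome 2, 102651300 to 102741822) measured 7.03, 3.47, 4.30 and 5.81 FPKM in mEpiSC 1 to 4 and 2.37, 1.13, 0.695 and 0.396 FPKM in mESC 1 to 4. No libraries of the states overlapped, and mESC 1, the mESC library with the most fibroblast marker RNA, was the highest of its state. The means were 5.15 ± 1.58 FPKM in mEpiSC and 1.15 ± 0.868 FPKM in mESC (log2 1.56, SE 0.29; limma, adjusted p = 0.0037). The mean log2 level of the fibroblast markers was 4.45, 3.75, 3.19 and 2.55 in mEpiSC 1 to 4 and 3.57, 1.76, 1.91 and 0.68 in mESC 1 to 4. With that mean as a covariate the log2 fold change of Cd44 was 1.07 (SE 0.31; limma, adjusted p = 0.033), against 1.56 without it.

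The upstream windows of the higher genes are shown for comparison, each 250 bases and marked as before: Prom1 at chr5:44101737-44101986 (minus strand, the farther upstream of its 2 listed starts) and Cd44 at chr2:102901666-102901915 (minus strand). Cd24a has no entry in the table.
Prom1: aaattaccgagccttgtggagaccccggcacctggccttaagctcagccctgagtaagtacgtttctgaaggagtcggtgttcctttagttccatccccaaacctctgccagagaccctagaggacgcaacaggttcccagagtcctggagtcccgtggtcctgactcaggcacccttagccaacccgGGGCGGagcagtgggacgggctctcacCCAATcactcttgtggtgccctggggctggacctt
Cd44: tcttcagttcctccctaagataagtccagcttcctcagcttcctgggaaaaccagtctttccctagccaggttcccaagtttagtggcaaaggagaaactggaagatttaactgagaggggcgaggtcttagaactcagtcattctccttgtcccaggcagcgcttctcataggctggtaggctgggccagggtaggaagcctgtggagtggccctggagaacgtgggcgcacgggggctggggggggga
Prom1 holds a GC box and a CCAAT box (found in 33.8% of all windows), and Cd44 none of the 6 motifs. They hold 9 and 5 CpG pairs in the order printed. The other listed start of Prom1, not shown, has 3 CpG pairs and none of the motifs. The windows of Kit and Fut4, which were not called, are not shown either. They hold 17 and 18 CpG pairs at the listed starts of Kit and 16 at that of Fut4. No difference in CpG pairs between higher and lower genes was tested.

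**Figure D2:**
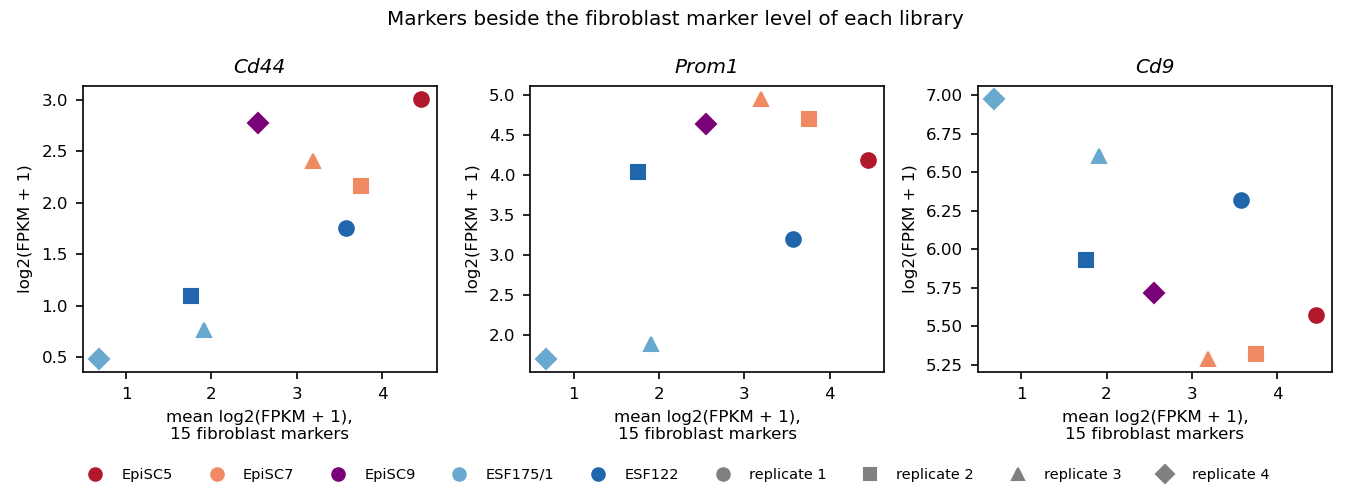
Level of Cd44, Prom1 and Cd9 on the log2(FPKM + 1) scale against the mean of 15 fibroblast markers on the same scale; each point is a library, coloured by line. The fibroblast level runs over 2.55 to 4.45 in mEpiSC and 0.68 to 3.57 in mESC. With it as a covariate the adjusted p (limma) was 0.033 for Cd44, 0.094 for Prom1 and 0.067 for Cd9. The log2 fold change went from 1.56 to 1.07 for Cd44, from 1.91 to 1.59 for Prom1 and from −0.98 to −0.765 for Cd9.

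Kit, whose ligand supports germ and blood progenitors, did not pass the test. Kit (chromosome 5, 75971012 to 76052746) measured 13.6, 4.69, 8.34 and 5.69 FPKM in mEpiSC 1 to 4 and 5.93, 6.54, 9.78 and 12.9 FPKM in mESC 1 to 4. The states overlapped broadly, with EpiSC5 above every other library. The means were 8.09 ± 4.01 FPKM in mEpiSC and 8.77 ± 3.20 FPKM in mESC (log2 −0.15, SE 0.32; limma, adjusted p = 0.76), and the 95% interval of the log2 fold change ran from −0.88 to 0.59. The sign turned positive without mESC 4 (0.041), without mEpiSC 2 (0.047) and in replicates 1 to 3 alone (0.16).

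Fut4 was the lowest of the 10 in mESC and reached 1 FPKM in 3 libraries, all mEpiSC. Fut4 (chromosome 9, 14552903 to 14556566) measured 1.29, 0.764, 1.07 and 1.70 FPKM in mEpiSC 1 to 4 and 0.368, 0.299, 0.147 and 0.806 FPKM in mESC 1 to 4. The states overlapped, since mESC 4 lay above mEpiSC 2, and the intervals imply 21 to 311 fragments per library. The mean log2 difference was 0.65, with a two-sided exact permutation p of 0.0571 over the 70 splits of 4 against 4, where 0.0286 is the smallest possible. In a limma fit without the filter on low values its adjusted p was 0.030.

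**Figure D3:**
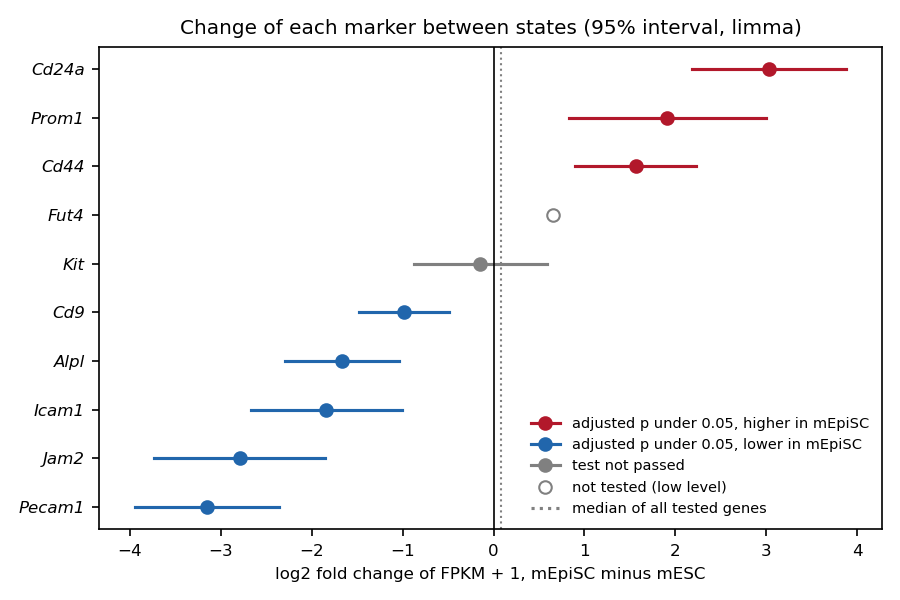
Log2 fold change of FPKM + 1, mEpiSC minus mESC, for each gene with the 95% interval from limma; the open point is Fut4, which was not tested, and the dotted line is the median of all tested genes (0.08). Intervals of 3 genes lie wholly above 0, those of 5 wholly below, and that of Kit spans 0.

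By level, the order of the genes differed between the states. In mEpiSC Cd24a led at 223 FPKM, followed by Cd9, Prom1 and Alpl at 43.8, 24.0 and 12.1 FPKM, and the ranges of neighbours among these 4 did not overlap. Alpl, Kit, Icam1 and Cd44 overlapped with their neighbours in that order, as did Jam2, Fut4 and Pecam1 at 1.58, 1.21 and 1.12 FPKM. In mESC Cd9 led at 90.1 FPKM, apart from Alpl at 38.3 FPKM. From Alpl down through Cd24a, Icam1, Jam2, Pecam1, Kit, Prom1, Cd44 and Fut4, each gene overlapped with the next.

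Lines of 1 state were compared in a fit with 1 mean per line. Between the mESC lines only Prom1 passed, at 2.47 FPKM in ESF175/1 and 11.8 FPKM in ESF122 (means of 2 libraries; log2 −1.82, SE 0.28; limma, adjusted p = 0.046), against a background of 0.762% of all tested genes. Its adjusted p ranged from 0.036 to 0.26 over 15 alternatives, and the call was lost without mESC 2 (0.18), mESC 4 (0.26), mEpiSC 2 (0.097) or mEpiSC 3 (0.10). The Prom1 call was lost too with a pseudocount of 5 (limma, adjusted p = 0.086) and without the filter on low values (0.11). Median ratio scaling (0.0515), quantile normalization (0.059) and a fit without the trend and robust settings (0.055) also lost it. At an unadjusted p under 0.05 there were 5 of the 9 tested, against 14.9% of all tested genes: besides Prom1, Cd9 and Kit were higher and Jam2 and Cd44 lower in ESF175/1. Cd9 averaged 111 FPKM in ESF175/1 and 69.4 FPKM in ESF122 (adjusted p = 0.22, and 0.036 without mESC 3, its only passing value). Jam2 averaged 11.04 FPKM in ESF175/1 and 25.5 FPKM in ESF122 (adjusted p = 0.26). The naive marker mean was lower and the primed marker mean higher in both ESF122 libraries than in both ESF175/1 libraries. Whether this goes with the level of Prom1 was not tested.

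Among the mEpiSC lines none of the 9 passed the limma F test, against a background of 2.6% of tested genes. At an unadjusted p under 0.05 there were 3 of the 9, against 24.7% of all tested genes. Alpl came nearest, at 5.49 FPKM in EpiSC5, 14.3 FPKM in EpiSC7 and 14.4 FPKM in EpiSC9 (adjusted p = 0.0501). Without mESC 3 or mESC 4, which enter only the shared estimate of the spread, its adjusted p was 0.013 in both cases. Pecam1, at 0.0629, 1.73 and 0.967 FPKM in the same lines, and Kit, at 13.6, 6.52 and 5.69 FPKM, had adjusted p-values of 0.19 and 0.16. EpiSC5 held the lowest mEpiSC level of Alpl, Pecam1, Jam2 and Prom1 and the highest of Cd24a, Cd44 and Kit. Every gene has a highest and a lowest library, and whether EpiSC5 held more of these places than chance gives was not tested. EpiSC5 is 1 library, so line and library cannot be told apart.

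**Figure D4:**
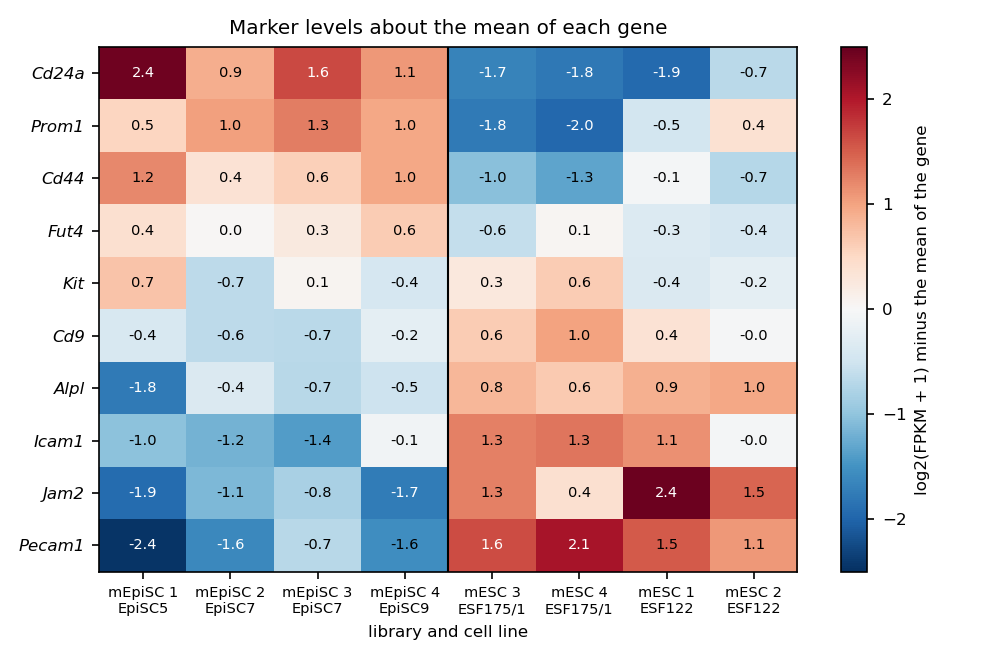
Log2(FPKM + 1) of each gene minus its mean over the 8 libraries, with libraries and lines along the page (mEpiSC left of the black line, mESC right) and genes ordered by fold change. Red is above and blue below the mean of the gene; EpiSC5 shows the strongest values for Cd24a and Pecam1 and the ESF175/1 libraries the lowest for Prom1.

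Relatives and partners of the markers were examined as lists chosen by function. Of 3 tested relatives of Jam2 2 were higher in mEpiSC and none lower (list median log2 1.65, against 0.08 for all tested genes). Jam3, a paralog, averaged 25.8 ± 2.85 FPKM in mEpiSC and 8.01 ± 3.48 FPKM in mESC (log2 1.65, SE 0.26). Cxadr, the coxsackievirus and adenovirus receptor of the same family, averaged 22.7 ± 4.73 FPKM in mEpiSC and 6.10 ± 1.34 FPKM in mESC. F11r, which encodes JAM-A, did not pass (23.8 ± 7.07 FPKM in mEpiSC and 20.4 ± 3.49 FPKM in mESC). Jam2 therefore had the opposite sign to both called relatives.

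Tetraspanins other than Cd9 were mostly higher in mEpiSC. Of 16 tested tetraspanins and Cd9 partners 11 were higher and 1 lower (median log2 0.75), where 23.1% and 14.2% of all genes were called in these directions. Tspan7 averaged 77.6 ± 57.7 FPKM in mEpiSC and 11.1 ± 4.44 FPKM in mESC, and Tspan6 49.9 ± 8.60 FPKM in mEpiSC and 11.8 ± 6.91 FPKM in mESC. Cd37, a tetraspanin of lymphocytes, was the lower one, at 0.264 ± 0.131 FPKM in mEpiSC and 2.51 ± 1.44 FPKM in mESC. Cd81, a frequent partner of Cd9, did not pass (127 ± 51.1 FPKM in mEpiSC and 116 ± 9.76 FPKM in mESC; log2 0.07, SE 0.23). The count of higher genes was 7 without mESC 3 and 6 with lines as samples, and without any 1 of the mESC libraries Cd37 fell below the filter.

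In the fucose list, which holds the other fucosyltransferases and the supply of their substrate, 7 of 11 tested genes were higher and 1 lower (median log2 0.81). The lower one was Fut9, the enzyme on which SSEA-1 depends in the mouse embryo, at 1.34 ± 0.655 FPKM in mEpiSC and 4.88 ± 2.09 FPKM in mESC (log2 −1.28, SE 0.33; limma, adjusted p = 0.014). Its libraries overlapped between the states, at 0.574 to 2.11 FPKM in mEpiSC and 1.94 to 6.59 FPKM in mESC, and the call was lost with the line as a random block. Slc35c1, which carries GDP-fucose into the Golgi, averaged 6.58 ± 1.22 FPKM in mEpiSC and 2.62 ± 0.723 FPKM in mESC. Pofut1, which adds fucose to Notch receptors, averaged 9.83 ± 1.07 FPKM in mEpiSC and 4.65 ± 0.823 FPKM in mESC. With lines as samples 4 were higher and 1 lower.

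Of 8 tested genes in the hyaluronan list 5 were higher and none lower (median log2 0.49). This list also holds Ezr, Rdx and Msn, which are not themselves hyaluronan receptors, synthases or hyaluronidases. Rdx (log2 0.46) and Msn (log2 0.52) are among the 5 higher genes. The synthase Has2 averaged 15.2 ± 2.47 FPKM in mEpiSC and 4.15 ± 3.82 FPKM in mESC (log2 1.95, SE 0.47; limma, adjusted p = 0.011), and the hyaluronidase Hyal2 23.9 ± 2.43 FPKM in mEpiSC and 12.1 ± 2.46 FPKM in mESC. Hmmr, an intracellular hyaluronan-binding protein of the spindle, did not pass. The count was 3 without mESC 1, mESC 3 or mEpiSC 1 and after median ratio scaling, 2 without mEpiSC 2 or mEpiSC 3, 2 with the fibroblast covariate or the line as a random block, and 1 with lines as samples.

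All 3 tested relatives of Kit were higher in mEpiSC, and 2 of them, Pdgfra and Pdgfrb, stand in the lists of primitive endoderm and fibroblast markers. Kitl, the ligand of Kit, averaged 2.61 ± 0.835 FPKM in mEpiSC and 1.20 ± 0.327 FPKM in mESC (log2 0.69, SE 0.20; limma, adjusted p = 0.026). The count was 1 without mESC 3, mESC 4 or mEpiSC 1, in replicates 1 to 3 alone, with lines as samples, with the line as a random block and with the fibroblast covariate. Of the relatives and integrin ligands of Icam1 only Vcam1 could be tested, and it did not pass (1.93 ± 1.12 FPKM in mEpiSC and 0.771 ± 1.05 FPKM in mESC), but it was called higher with the replicate number as a block.

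**Figure D5:**
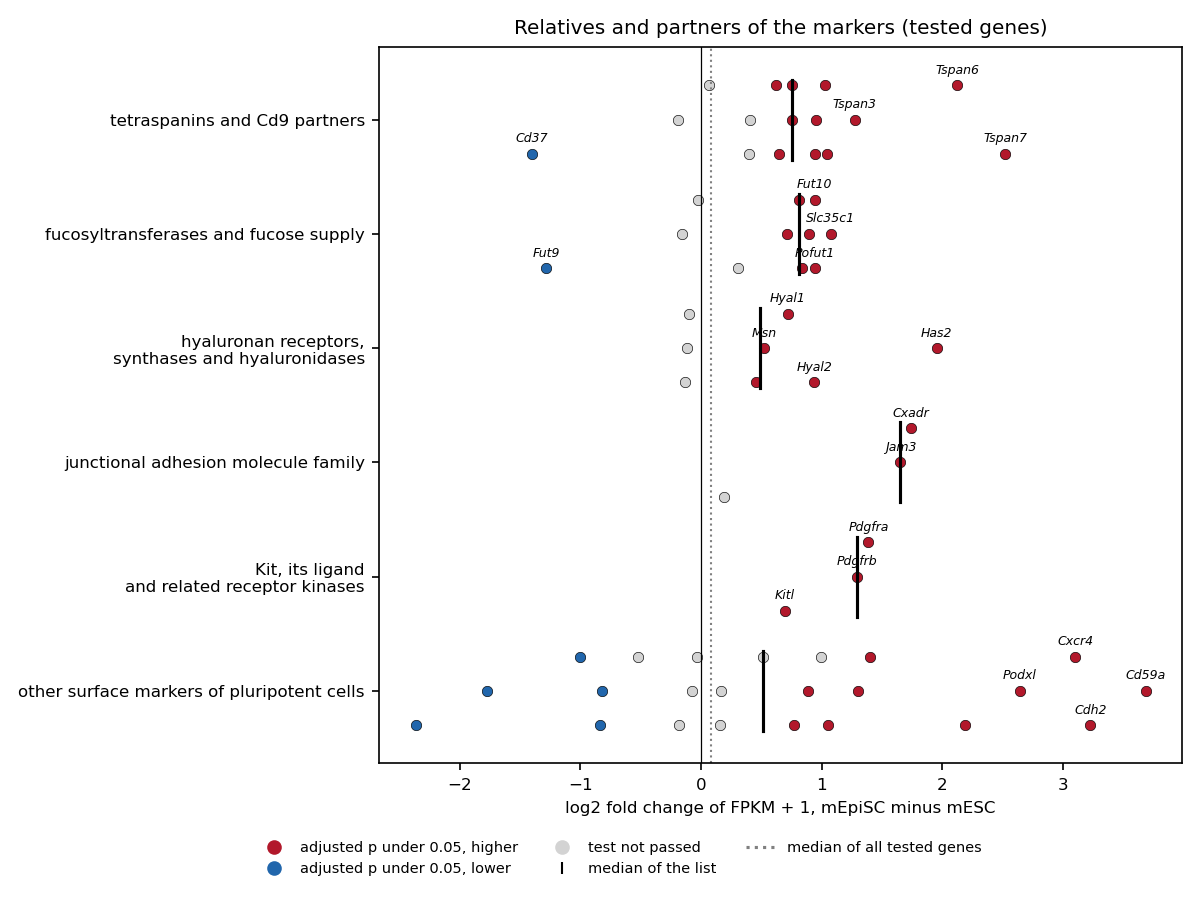
Log2 fold change of FPKM + 1, mEpiSC minus mESC, of the tested genes in 6 lists (rows); black ticks are list medians and the dotted line is the median of all tested genes. Cd37 and Fut9 are the lower calls in their lists, and the list of other surface markers holds 5 lower calls.

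Of 23 other surface proteins used as markers of pluripotent cells 10 were higher and 5 lower in mEpiSC (median log2 0.51). Cd59a, an inhibitor of complement, averaged 34.4 ± 7.58 FPKM in mEpiSC and 1.76 ± 0.628 FPKM in mESC (log2 3.69, SE 0.20). The chemokine receptor Cxcr4 averaged 18.3 ± 19.0 FPKM in mEpiSC and 0.659 ± 0.230 FPKM in mESC, and the sialomucin Podxl 61.3 ± 39.0 FPKM in mEpiSC and 7.62 ± 1.82 FPKM in mESC. The lower genes, named after their values were seen, were Epcam, Cdh1, Lifr, Kirrel2 and Tfrc. Kirrel2, an immunoglobulin superfamily protein, averaged 0.201 ± 0.158 FPKM in mEpiSC and 5.27 ± 1.33 FPKM in mESC (log2 −2.36, SE 0.20). The lower calls were 2 without mESC 1, mESC 3 or mESC 4 and 3 without mEpiSC 1 or mEpiSC 2 or with the line as a random block, and with lines as samples the calls were 5 higher and 1 lower. Kirrel2 reached 1 FPKM only in mESC and Cxcr4 only in mEpiSC, so each was tested only because it was high in that state. Each fell below the filter without any 1 library of that state.

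For each called marker the genes nearest in pattern were taken as those with the smallest root mean square difference of centred log2(FPKM + 1) over the 8 libraries. Pecam1 lay nearest to Klf2, a naive Krüppel-like factor (0.33 on the log2 scale), and to EU599041 (0.37). Cd24a lay nearest to Cdh2, which encodes N-cadherin (0.26), and to Dkk1, a secreted Wnt antagonist (0.27). Klf2 averaged 4.38 ± 2.58 FPKM in mEpiSC and 34.7 ± 5.02 FPKM in mESC, and Cdh2 21.8 ± 8.55 FPKM in mEpiSC and 1.41 ± 0.880 FPKM in mESC. The nearest genes were Gsta4 and Tuba4a for Alpl (0.16 and 0.23), 1700061G19Rik and Dusp27 for Jam2 (0.38 and 0.44) and Aplp1 and Ydjc for Icam1 (0.29 each). They were Atp11b and Gpx1 for Cd9 (0.12 and 0.13), Fosl2 and Plat for Cd44 (0.17 and 0.18) and Arl4c and Ptn for Prom1 (0.21 and 0.22). For scale, the markers themselves varied about their means by 0.58 (Cd9) to 1.66 (Pecam1).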

How the data were processed

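Polyadenylated RNA of 4 mEpiSC and 4 mESC libraries was prepared with an Illumina TruSeq kit, per the labels' protocols. The deposited FPKM, 1 table per library with an interval and a status, were made by the authors with TopHat2 2.0.6 and Cufflinks 2.0.2 on mm9, per the submitters' processing notes; annotation, options and strand setting: not given in the sources used here. All 10 genes had status OK in every library and overlapped no other entry. Starts are 1-based. Symbols at several loci (248) were left out.

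In R 4.3.3, limma 3.58.1 with statmod 1.5.0 was fitted, using its trend and robust settings, to log2(FPKM + 1) of every gene that reached 1 FPKM in 4 or more libraries, with adjusted p under 0.05 as the threshold; Fut4 was below the filter. The fit was tested on simulated data. Alternatives changed the pseudocount, the filter, the scaling, the trend, the libraries left out, the replicate or line block, the use of 1 mean per line and a fibroblast covariate. Implied fragments assume an interval of 2 SD of Poisson counting on either side, and such intervals cover counting error only. Windows shared between genes were 50 bases long, from GENCODE vM21 transcripts of GRCm38, compared on both strands. Deviations of same-numbered libraries had correlations across genes of 0.217, 0.153, 0.185 and 0.514. Each exceeded 0.1, the limit set for reading numbers as pairs, but mEpiSC 2 with mESC 3 (0.208) and mEpiSC 3 with mESC 2 (0.192) did so too. So did mEpiSC 2 with mESC 1 (0.123) and mEpiSC 1 with mESC 2 (0.111). Both mEpiSC 2 and mEpiSC 3 correlated more with an unlike number than with their own, and number 4 was the highest pair. The pairing comes from the data, not from a label. Named genes were all 10 markers, in each list up to 4 passing genes of largest change, and the 2 nearest genes per called marker; other genes were named after their values were seen. Markers, lists and tests were chosen with earlier results of these data known.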

Additional observations from a re-analysis of the deposited data

Results flagged for a closer look

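Cd24a in mESC 2, at 43.97 FPKM, lay apart from the other mESC libraries (17.7 to 21.5 FPKM): its gap to the next library was 0.857 of the range of the state. It was the only library to stand apart in this way among the 20 sets of 4 libraries examined, and chance alone sets apart about 1 in 20. Without mESC 2 the log2 fold change of Cd24a was 3.31 (limma, adjusted p = 7.3e-04). The same library had the highest primed and the lowest naive marker mean of the mESC libraries. Whether this goes with its Cd24a level was not tested.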

How the results depend on the processing

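All members were computed again under 20 alternatives. Of 191 member fold changes obtained, 181 were classed as unchanged. For the 9 tested members this meant the same direction and side of the threshold. Fut4 had no main test, so there it meant the same direction and a shift smaller than the SD within states, met by 10 of its 12 values. The counts of 3 higher and 5 lower members were unchanged without any library in turn, in replicates 1 to 3 alone and with the replicate number as a block (3 and 5), which changed no member call; among the lists it added Vcam1, Igsf8 and 9 fibroblast markers as higher and Dnmt3b as lower, and lost Cd63. With libraries of each line averaged and 1 mean per line, the lower members were 3 and the higher 2; with the fibroblast covariate they were 4 and 2. Without the filter on low values the higher members were 4, including Fut4; a mean of at least 5 FPKM left out Cd44. The difference of Fut4 was 1.48 with a pseudocount of 0.1 and 0.20 with one of 5. The log2 fold change of Kit ranged from −0.41 to 0.047 without each library; its sign turned without mESC 4 (0.041), without mEpiSC 2 (0.047) and in replicates 1 to 3 alone (0.16). Members called between the mESC lines were 0 with a pseudocount of 5, no filter, median ratio scaling, quantile normalization or no trend, and 0 to 2 without each library; those called among the mEpiSC lines were 0 to 1. Fits that leave a line with 1 library assume that it varies like the others. Over all tested genes 2665 were higher and 1640 lower as deposited, 2139 and 2346 after median ratio scaling (median log2 −0.05 against 0.08) and 2187 and 2211 after quantile normalization; no member call changed direction in either. Depth limits Fut4 and Pecam1 in EpiSC5, where intervals imply few fragments.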

Other observations

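Some genes known from blood and vessels, singled out after their values were seen and too low to be tested, were listed lower in every mEpiSC library than in every mESC library. Itgal, the alpha chain of the Icam1 ligand LFA-1, was at 0.0197 to 0.0686 FPKM in mEpiSC and 0.495 to 1.14 FPKM in mESC, while its partner chain Itgb2 averaged 0.137 ± 0.0887 FPKM in mEpiSC and 0.145 ± 0.104 FPKM in mESC. Cd3e, of the T cell receptor complex, was listed at 0 in all 4 mEpiSC libraries and at 0.271 to 0.858 FPKM in mESC. Vwf, the von Willebrand factor of endothelium, was at 0.0468 to 0.484 FPKM in mEpiSC and 0.592 to 1.16 FPKM in mESC. Other genes of the same lists ran the other way: the endothelial genes Cdh5 and Sox18 lay wholly higher in mEpiSC, and Cldn5, Tie1, Emcn, Esam, Tal1, Sfpi1 and Hbb-bh1 had higher means in mEpiSC with overlapping libraries. Ptprc, which marks all leukocytes, did not exceed 0.0200 FPKM in any library.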
